A study of Mus musculus with 6 samples.

Results

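The ERK feedback inhibitors Dusp1, Dusp4, Dusp5, Dusp6, Spry1, Spry2, Spry4, Spred1 and Spred2 were compared between CD73+ and CD73- AD-MSCs of mice. Each probe set, a group of short probes for a transcript, that was annotated to 1 of these 9 genes and to no other was taken. This gave 24 of 45037 probe sets, for 9 of the 18193 genes that could be named. AD-MSCs are adherent stromal cells cultured out of fat, here from the groin of adult C57BL/6 mice. Flow cytometry had split them by CD73, the adenosine-making surface enzyme that Nt5e encodes, into a CD73+ and a CD73- subgroup, with no drug or transgene in either. Both were grown in low sugar DMEM with serum, and fifth-passage RNA was read on Affymetrix mouse arrays, 3 per subgroup. The sources used here do not say how many mice stand behind an array. Nor do the labels call the arrays separate cultures, and the p-values therefore cover the spread among these 6 arrays alone, which may be technical.

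ERK, the last kinase of the cascade that runs from growth factor receptors through Ras, RAF and MEK, switches on genes whose products turn the same cascade down. The dual-specificity phosphatases (DUSP) remove the phosphates that activate MAP kinases. Dusp6 acts on ERK in the cytoplasm, whereas Dusp5 acts on ERK in the nucleus, and Dusp1 and Dusp4 are nuclear phosphatases that also act on p38 and JNK. Sprouty (Spry) and Spred proteins work further up, at the membrane, between the receptor and RAF. The mRNAs of several of these genes are made within minutes to hours of growth factor stimulation, and for this reason they are widely read as a record of recent ERK activity.

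In CD73+ AD-MSCs the phosphatases Dusp6 and Dusp1 were higher. The Ras-RAF inhibitor Spred2 was higher on 2 of its 5 probe sets, and Spry4 was lower on 2 of its 4. For the mean of a gene's probe sets, Spred2 did not pass at 0.11, while Spry2 and Spry4 passed at -0.31 each. Dusp6 was 1.48-fold and Dusp1 1.31-fold higher. All 7 Sprouty probe sets had a difference below 0, while 9 of 13 Spred probe sets had one above 0. They are repeated readings of only 3 Sprouty and 2 Spred genes. On the brightest probe set 0 of the 3 Sprouty genes and 1 of the 2 Spred genes passed. Over all probe sets the median log2 difference was -0.00019. At an adjusted p under 0.05 from limma, 4 of 24 probe sets were higher and 2 were lower. That is 16.7% and 8.33% of the members, where 9.79% and 9.11% of all probe sets were higher and lower, and 25.0% against 18.9% in either direction. Read by gene from its brightest probe set, 3 of 9 were higher (10.1% of all genes) and 0 lower by limma (12.6% of all genes), against 22.8% of all genes in either direction, and 6 of the 9 had an unadjusted p under 0.05, as did 34.2% of all genes. These 9 probe sets are brighter than most: 0 lay below the median level. In a limma fit rerun and adjusted anew on the 22519 probe sets kept by a filter at that level, 23.0% were higher and 22.7% lower. That fit differs from the one that gave the member calls above. Without any 1 of the arrays other than CD73+ replicate 3, 2 of 9 genes were higher, and 2 or 3 of the 24 probe sets. Of all probe sets, 6.2% to 8.82% were higher in those fits, so calls became fewer over the whole arrays too. The count of lower probe sets was 0 by limma when the second CD73+ array or the first or second CD73- array was left out, and 1 without CD73+ replicate 3. Without CD73- replicate 3, 1 gene (Spry2) was lower. The median log2 difference was -0.0087 over the 9 genes and -0.018 over all genes. All lower values are lower on the deposited scale, in which most transcripts are set alike between arrays. After scaling to the poly-A spike-in controls, which differed by -0.93 between the subgroups, all 24 probe sets were higher. What a direction on that scale means depends on whether each RNA received equal amounts of these controls, which the sources used here do not give.

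The promoters of the 3 genes that were higher on their brightest probe set are shown so that a reader can see what lies before the start of each. The sequences are the 250 bases before the annotated start in RefSeq (GRCm38.p6), printed on the gene's own strand. They lie at chr10:99262981-99263230 (plus strand) for Dusp6, chr17:26508473-26508722 (minus strand) for Dusp1 and chr11:19924192-19924441 (plus strand) for Spred2. Capitals mark the half-site of the cAMP response element (TGACG), a long form of the ETS site (CGGAAG) and the CCAAT box (CCAAT), each on either strand. Shorter forms of the ETS site were neither searched nor marked.
Dusp6: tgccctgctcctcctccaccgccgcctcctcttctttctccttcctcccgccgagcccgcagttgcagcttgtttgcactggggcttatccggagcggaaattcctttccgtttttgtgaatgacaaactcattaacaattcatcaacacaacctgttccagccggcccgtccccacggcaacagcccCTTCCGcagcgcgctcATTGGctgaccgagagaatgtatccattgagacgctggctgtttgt
Dusp1: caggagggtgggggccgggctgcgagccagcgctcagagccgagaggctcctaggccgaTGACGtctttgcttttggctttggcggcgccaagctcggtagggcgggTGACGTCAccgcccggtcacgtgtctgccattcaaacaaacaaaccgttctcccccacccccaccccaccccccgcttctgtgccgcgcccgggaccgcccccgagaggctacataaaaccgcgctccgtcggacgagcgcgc
Spred2: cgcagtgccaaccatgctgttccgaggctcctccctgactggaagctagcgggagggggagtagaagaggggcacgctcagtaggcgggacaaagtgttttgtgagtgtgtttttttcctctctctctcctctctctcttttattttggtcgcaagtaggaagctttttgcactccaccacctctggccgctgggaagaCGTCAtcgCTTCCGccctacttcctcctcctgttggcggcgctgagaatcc
Promoters of 7 members were in the RefSeq table, those of Dusp1, Dusp5, Dusp6, Spry1, Spry2, Spred1 and Spred2. Dusp1 held the full cAMP response element TGACGTCA, which begins 143 bases before the start and contains a pair of overlapping half-sites, and another half-site that begins 191 bases before the start. The full element was in 1 of the 7 and in 1.55% of all 32851 promoters of the same length. The half-site was in Dusp1, Dusp5 and Spred2 and in 17.8% of all promoters. The long form of the ETS site, a site bound by a family with members that ERK phosphorylates, was in Dusp6, Spred1 and Spred2 and in 13.6% of all. The CArG box, the site of serum response factor, was found in Dusp5 alone among the 7, where it matched at 2 positions, and in 1.47% of all promoters. The CCAAT box was in Dusp6 and Spry1 and in 33.8% of all. The AP-1 site (TGAGTCA) and the TATA box (TATAAA) were in none of the 7 and in 4.46% and 12.4% of all. These matches describe letters in the window and are not evidence of binding.

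Dusp6, the cytoplasmic ERK phosphatase, had log2 signals of 8.87, 8.89 and 8.88 on the CD73- arrays and of 9.41, 9.47 and 9.48 on the CD73+ arrays. Every CD73+ array lay above every CD73- array, by far more than the arrays of a subgroup differed. The means were 8.88 ± 0.0136 (SD, n = 3) and 9.45 ± 0.0357 (SD, n = 3), 0.57 apart with a standard error of 0.053 (limma, adjusted p = 0.00059). Of all genes, 2.4% had a higher difference. The 3 genes whose centred signals lay nearest to those of Dusp6 over the 6 arrays, among 16320 compared, were Tspan17, Hmmr and Pnp, with a root mean square distance between 0.0176 and 0.0219 on the log2 scale.

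Dusp1, a nuclear phosphatase of p38, JNK and ERK that stress and growth factors induce at once, had log2 signals of 10.31, 10.33 and 10.29 on the CD73- and 10.72, 10.71 and 10.67 on the CD73+ arrays. The subgroups did not overlap. The rise of 0.39 had a standard error of 0.052 (limma, adjusted p = 0.00242) and led from 10.31 ± 0.018 (SD, n = 3) to 10.70 ± 0.0253 (SD, n = 3). Nearest to Dusp1 in pattern were Cyb561d2, Myh10 and Hk1, at distances between 0.0134 and 0.0151. The Dusp6 and Dusp1 calls held without any 1 array, with an adjusted p from limma of at most 0.00472 and 0.016.

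The other nuclear phosphatases did not follow. Dusp4 had log2 signals of 9.62, 9.57 and 9.44 in CD73- and 9.39, 9.35 and 9.41 in CD73+ AD-MSCs, with the highest CD73+ array just below the lowest CD73- array. Its difference of -0.16 did not pass (95% interval -0.31 to -0.0091, adjusted p = 0.142 from limma). It passed with array weights or a mean-variance trend in the fit (adjusted p = 0.0499 and 0.0245 from limma). Dusp5 had 8.91, 9.02 and 8.92 in CD73- and 8.92, 8.95 and 8.95 in CD73+ AD-MSCs, and its difference was -0.0087 (95% interval -0.14 to 0.13, adjusted p = 0.945 from limma). The CD73+ arrays lay inside the range of the CD73- arrays.

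**Figure D1:**
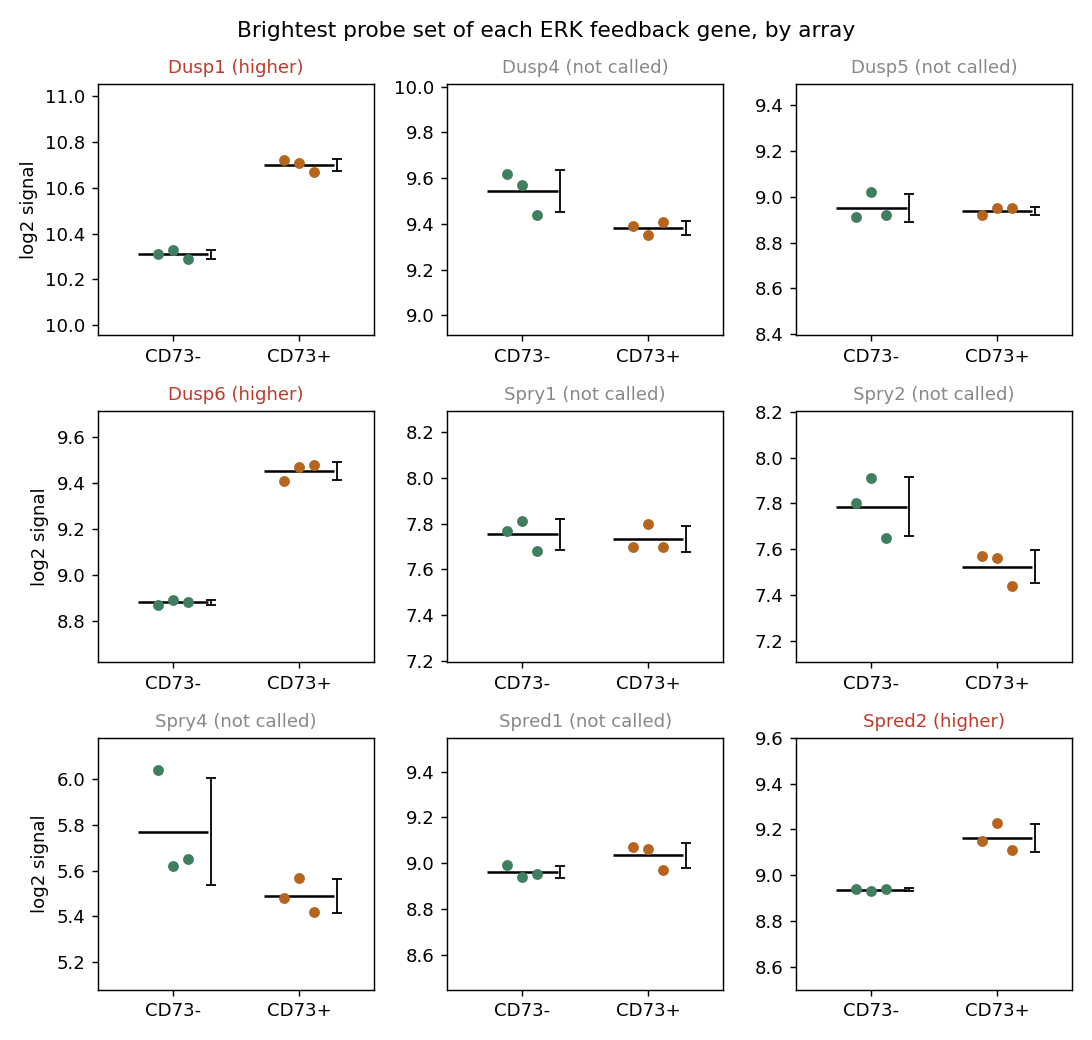
Log2 signal (vertical axis) of the brightest probe set of each of the 9 ERK feedback genes on 3 CD73- and 3 CD73+ arrays. Points are arrays, lines means and bars 1 SD. Dusp6 and Dusp1 separate cleanly, at means of 8.88 and 9.45 and of 10.31 and 10.70, and Spred2 less so. Dusp4, Spry2 and Spry4 lie lower in CD73+ AD-MSCs without overlap but did not pass, and Dusp5, Spry1 and Spred1 overlap. On the scale of the poly-A controls all 9 are higher in CD73+ AD-MSCs.

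The Spred proteins bind Ras and RAF and bring neurofibromin, which inactivates Ras, to the membrane. Spred2 was read by 5 probe sets. On the brightest, the log2 signals were 8.94, 8.93 and 8.94 in CD73- and 9.15, 9.23 and 9.11 in CD73+ AD-MSCs, without overlap. The rise was 0.23 with a standard error of 0.057 (limma, adjusted p = 0.0296). A dimmer one had 6.42, 6.54 and 6.49 against 6.90, 6.91 and 6.66 and rose by 0.34 (adjusted p = 0.0272 from limma). The 3 others ran from -0.069 to 0.067 and did not pass. Both calls ended without any 1 of the arrays other than CD73+ replicate 3 (adjusted p from limma 0.0571 to 0.112). For the mean of the 5 probe sets the difference was 0.11 (limma, adjusted p = 0.186).

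Spred1 was read by 8 probe sets, none of which passed. The brightest had 8.99, 8.94 and 8.95 in CD73- and 9.07, 9.06 and 8.97 in CD73+ AD-MSCs, which overlap, with a difference of 0.071 (95% interval -0.062 to 0.20, adjusted p = 0.476 from limma). The next brightest had 8.56, 8.71 and 8.68 against 8.93, 8.92 and 8.81, without overlap, and came nearest to the threshold (difference 0.23, adjusted p = 0.0524 from limma). It passed with quantile normalization, cyclic loess, array weights, a trend or a filter at the median level, and without CD73+ replicate 3 (adjusted p from limma 0.0052 to 0.048). Of the 8 differences 6 were above 0, and the pair below 0 came from the dimmest probe sets, with mean log2 signals of 4.94 and 3.06.

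Sprouty proteins are inhibitors that growth factors induce and that bind adaptors and RAF below the receptor. Spry4 was read by 4 probe sets near the middle of the arrays' signals, at mean levels between 4.86 and 5.63, while the array medians lay between 5.28 and 5.37. On 1 of them the log2 signals were 5.44, 5.68 and 5.43 in CD73- and 5.28, 4.99 and 4.97 in CD73+ AD-MSCs, and on another 5.02, 5.21 and 4.98 against 4.78, 4.72 and 4.55. The subgroups did not overlap on either. These fell by 0.44 and by 0.38 on the log2 scale (adjusted p = 0.0273 and 0.0233 from limma) as deposited, whereas poly-A control scaling turned them. The brightest probe set had 6.04, 5.62 and 5.65 against 5.48, 5.57 and 5.42, and its difference of -0.28 did not pass (adjusted p = 0.152 from limma) and was -0.15 without CD73- replicate 1. The fourth had -0.14 (adjusted p = 0.462 from limma). Neither call survived the loss of the first or second CD73- array, or of CD73+ replicate 2 or replicate 3 (limma, adjusted p 0.0542 to 0.092), whereas the mean of the 4 probe sets passed at -0.31 (adjusted p = 0.00408 from limma).

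Spry2 had log2 signals of 7.80, 7.91 and 7.65 in CD73- and 7.57, 7.56 and 7.44 in CD73+ AD-MSCs on its brighter probe set. All CD73+ arrays were below all CD73- arrays, and the difference of -0.26 did not pass (95% interval -0.45 to -0.076, adjusted p = 0.0609 from limma). The dimmer probe set had -0.35 with overlapping subgroups (adjusted p = 0.0855 from limma), and the mean of both passed at -0.31 (adjusted p = 0.00421 from limma). The brighter one passed with quantile normalization, cyclic loess, array weights, a trend or a filter at the median level, and without CD73- replicate 3 (adjusted p from limma 0.0128 to 0.0416). The dimmer one passed with median centring, with the replicate number as a block and without CD73+ replicate 3 (adjusted p from limma 0.035 to 0.0486). Spry1 had 7.77, 7.81 and 7.68 against 7.70, 7.80 and 7.70, which overlap, and a difference of -0.023 (95% interval -0.17 to 0.12, adjusted p = 0.861 from limma). On the scale of the poly-A controls the Sprouty differences turned and lay between 0.49 and 0.90.

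**Figure D2:**
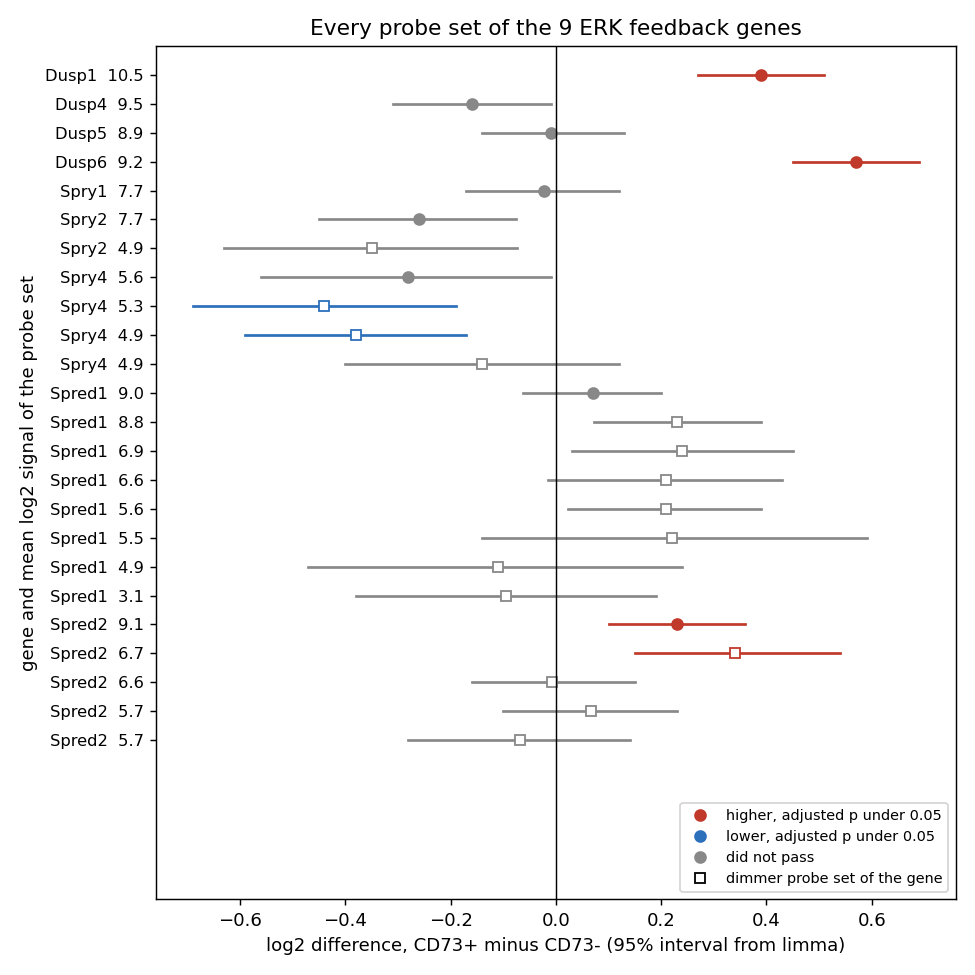
Log2 difference, CD73+ minus CD73- AD-MSCs (horizontal axis), of the 24 probe sets of the 9 genes, with the 95% interval from limma; each row gives the gene and the mean log2 signal of the probe set, filled circles are the brightest probe set of a gene and open squares the others. Dusp6 (0.57) and Dusp1 (0.39) lie farthest to the right and the Sprouty probe sets all lie left of 0, which reverses on the poly-A control scale.

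Among the 24 probe sets the subgroups did not overlap on 11, 6 of them higher and 5 lower, which is 45.8% where 17.7% of all probe sets did so higher, 17.2% lower and 34.9% either way. Among the 9 genes they did not overlap on 3 higher and 3 lower, which is 66.7% where 18.1% of all genes did so higher, 22.7% lower and 40.8% either way. Of these 9 brightest probe sets 0 lay below the median level, whereas all genes include many dim ones. With the filter at the median level, 7 of 18 member probe sets were higher and 1 lower by limma. Of all probe sets kept, 23.0% were higher and 22.7% lower. Overlap among equally bright genes was not tested. The SD within a subgroup ran from 0.00624 to 0.307 over the 24 probe sets. Over all probe sets the median SD was 0.0944.

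Other genes of the pathway were read from 7 lists compiled by hand, with 128 measured genes, of which 29 were higher and 18 lower. The shares over all genes were 10.1% higher and 12.6% lower. Most listed genes are bright: 10 of 21 ligands lay below the median level, but 4 of 19 receptors and at most 2 genes of each other list. In the fit rerun on probe sets above that level, 23.0% were higher and 22.7% lower. Growth factor ligands had 5 higher and 2 lower of 21, with a median log2 difference of 0.0048. Pdgfd, which activates the PDGF receptors, rose by 0.87, and Fgf7, a fibroblast growth factor of stromal cells, by 0.83. Gdnf, the ligand of RET, fell by 0.98 and Fgf2 by 0.50, the latter near the lowest signals of the arrays (3.19 in CD73+ AD-MSCs). Only without CD73- replicate 2 or without CD73+ replicate 1 did Fgf2 keep its call (limma, adjusted p otherwise 0.0812 to 0.107). The ligands counted higher were 3 when CD73+ replicate 1, or the first or second CD73- array, was left out. Receptor tyrosine kinases had 3 higher and 0 lower of 19 (median -0.012). Pdgfra, a PDGF receptor, rose by 0.64 and the IGF receptor Igf1r by 0.45, although another Igf1r probe set was lower.

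Of 24 measured adaptor, Ras and ERK cascade genes 2 were higher and 6 lower (median -0.015). The Ras relative Mras fell by 0.53 and the Ras activator Sos2 by 0.40. Rps6ka3, a kinase that ERK activates, rose by 0.31 and the Ras relative Rras by 0.22. Other probe sets of Mras and Rps6ka3 passed in the other direction. The Rras call ended without any 1 array, and the Sos2 call when the second CD73- or the first CD73+ array was left out (limma, adjusted p 0.0531 to 0.11). Map2k1, which encodes MEK1, was at 0.039 (limma, adjusted p = 0.727). Of 10 p38 and JNK pathway kinases 2 were higher and 2 lower, with the JNK gene Mapk8 at 0.37 and the p38 gene Mapk12 at -0.37. Map2k3 at 0.19 and Mapk9 at -0.25 passed as well. The Map2k3 call ended without any 1 array and the Mapk9 call without any 1 other than CD73- replicate 3 (adjusted p from limma 0.0501 to 0.147).

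Of 8 other dual-specificity MAP kinase phosphatases 1 was higher and 2 were lower (median -0.036). Dusp14 rose by 0.23, Dusp16, a phosphatase of JNK and p38, fell by 0.36, and Dusp3 fell by 0.21. Another Dusp16 probe set was higher. The Dusp3 call ended without any 1 array, and the Dusp14 call without any 1 other than CD73+ replicate 3 (adjusted p from limma 0.0591 to 0.128). Of 25 other brakes on receptors, Ras and ERK 6 were higher and 2 lower (median 0.031). Spred3, the third Spred gene, rose by 0.61 from a log2 signal of 5.47 to 6.08 (adjusted p = 0.00182 from limma). Tob1, an antiproliferative protein, rose by 0.48, while the Ras inactivator Rasal2 fell by 0.41 and the tyrosine phosphatase Ptpn2 by 0.36.

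Transcripts listed by hand as responsive to ERK had 10 higher and 4 lower of 21, with a median of 0.20. Among all genes 10.1% were higher and 12.6% lower. Of the 21, however, 0 lay below the median level, and calls were more frequent in the fit rerun on bright probe sets. Egr3 and Fos, immediate early transcription factors, rose by 1.28 and 1.13. Myc and Fosl1, a Fos relative that accumulates under lasting ERK signaling, fell by 0.50 and by 0.46. All of the falls given for the pathway genes hold on the deposited scale; on that of the poly-A controls no gene of the 7 lists was lower.

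**Figure D3:**
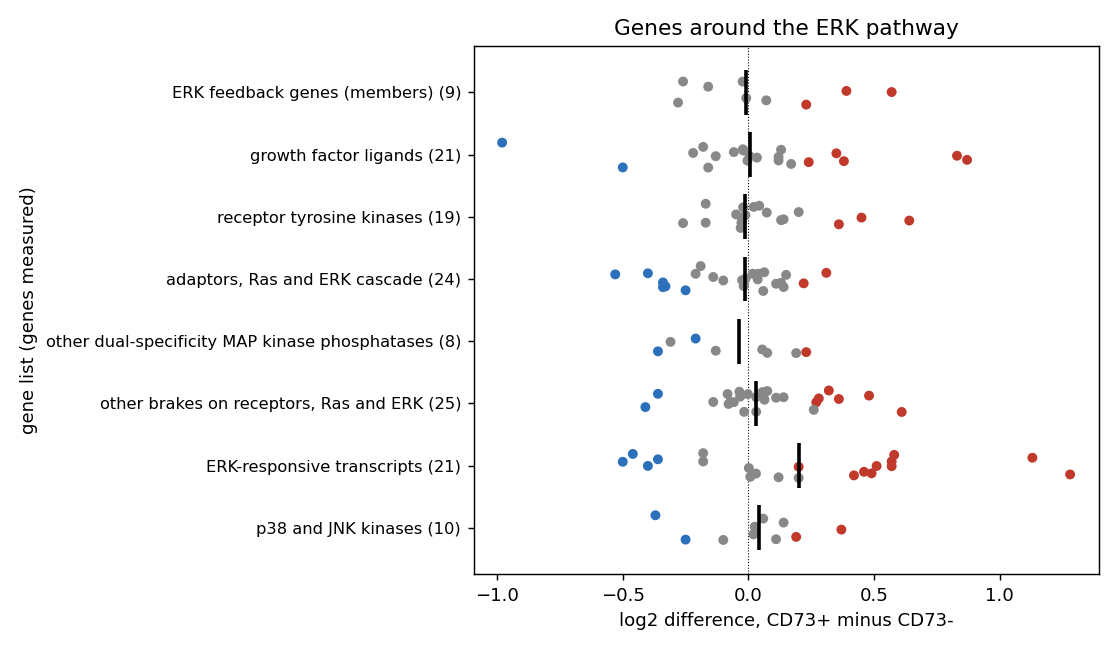
Log2 difference, CD73+ minus CD73- AD-MSCs (horizontal axis), of the 9 members and of the measured genes of 7 lists around the ERK pathway (vertical axis, number measured in brackets), each point a gene read by the probe set of highest mean, with a black bar at each median. Red marks a higher gene and blue a lower one (limma, adjusted p under 0.05); ERK-responsive transcripts spread from -0.50 to 1.28, and no list has a lower gene after scaling to the poly-A controls.

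Nt5e, which encodes the protein used for the sort, was at 7.29, 6.39 and 6.84 on the CD73- and at 7.84, 7.60 and 7.74 on the CD73+ arrays of its brightest probe set (difference 0.88, limma, adjusted p = 0.0218), and 2 dimmer ones did not pass. Its call was lost when CD73- replicate 3, CD73+ replicate 1 or CD73+ replicate 3 was left out (limma, adjusted p 0.0563 to 0.0763). Of 12 stromal markers other than Nt5e 7 were higher and 0 lower, where 10.1% of all genes were higher and 12.6% lower. With Nt5e, 1 of 13 lay below the median level, and calls were more frequent in the fit rerun on bright probe sets. The mean log2 signal of the 12 was 10.02 to 10.05 on the CD73+ and 9.57 to 9.58 on the CD73- arrays. Of 9 leukocyte markers Cd14 and Csf1r were higher, while Ptprc, which encodes the leukocyte antigen CD45, stayed among the lowest signals of the arrays at 3.12. The list had a mean of 5.04 to 5.07 in CD73+ and of 4.85 to 4.93 in CD73- AD-MSCs. Of 25 endothelial, mural, adipocyte, epithelial and Schwann cell markers 0 passed on the brightest probe set, where 22.8% of all genes did. Many of them are dim: 7 of 8 endothelial, 4 of 6 mural and 4 of 4 adipocyte markers lay below the median level. So did 3 of 5 epithelial and 1 of 2 Schwann cell markers. Dimmer probe sets passed for the adipocyte marker Fabp4 (2 of its 4, higher) and the mural marker Cspg4 (1 of its 2, lower). In bulk RNA such as this a change in the share of a cell type and a change in RNA per cell cannot be told apart. As a measure of RNA integrity, the beta-actin control's 3′ over 5′ log2 ratio was 0.0718 to 0.0998 on the CD73+ and 0.162 to 0.212 on the CD73- arrays. That of Gapdh was -0.307 to -0.238 and -0.316 to -0.273, which overlap. The part of these marker and control differences in the Dusp, Sprouty and Spred results was not tested.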

How the data were processed

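RNA of 3 CD73+ and 3 CD73- AD-MSC samples was hybridised to 1-colour Affymetrix mouse arrays. The log2 signals of 45101 probe sets were deposited by the authors after RMA, according to the submitters' processing notes, in a version not given in the sources used here. RMA subtracts background, gives the arrays nearly equal distributions and can shrink small ratios. No further scaling was applied. Without 64 controls, 45037 probe sets entered lmFit and eBayes of limma 3.58.1 (R 4.3.3) with no block or filter, two-sided; p-values were adjusted over this whole set by the Benjamini-Hochberg method, and 0.05 was the threshold. The methods give only a general test, which does not mention the arrays. Platform annotation gave 34945 probe sets a single symbol, 932 several and 9160 none here. RefSeq held the Entrez ID of 34741, and 0 symbols changed. The brightest single-symbol probe set, by its mean over 6 arrays, stood for a gene.

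The members and lists were chosen with earlier results of these data known. The text names the members, at most 2 risen and 2 fallen genes per pathway list (those that passed with the largest differences), Nt5e, and the 3 genes most like each of the 2 members with the largest change. Map2k3 and Mapk9 fall under that rule. Map2k1, Ptprc, Cd14 and Csf1r were added once their values were known, and Fabp4 and Cspg4 are named for dimmer probe sets that passed. In simulated data for this comparison, with 200 of 45037 probe sets changed, 42% of changes of 0.5 and 87% of changes of 1 (log2) were called, beside 2 false calls. The simulated noise was independent between probe sets, and in the data 18.9% of probe sets were called. These rates therefore need not hold for the data. Alternatives were a replicate block, other scalings, a filter, other priors, array weights, the methods' test, fewer arrays, a threshold of 0.01 and averaged probe sets; leaving Nt5e out of the stromal markers was chosen after seeing the data. The number of arrays limits the precision. Plots used matplotlib 3.10.9 (Python 3.11.15).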

Additional observations from a re-analysis of the deposited data

How the results depend on the processing

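The Dusp6 and Dusp1 differences kept their direction and their call under all alternatives run, and no other member did. Scaling to the poly-A controls, which moves the median of all probe sets by 0.926, made 24 member probe sets and 9 members higher and 0 lower, and of all probe sets 44707 higher and 33 lower. The probe sets that turned were at 0.77 for Dusp4, 0.92 for Dusp5, 0.90 for Spry1, 0.66 and 0.58 for Spry2, 0.64, 0.49, 0.54 and 0.78 for Spry4, 0.81 and 0.83 for Spred1 and 0.92 and 0.86 for Spred2. Among the named pathway genes Fgf2 was at 0.43, Sos2 at 0.53, Mras at 0.40, Dusp3 at 0.72, Dusp16 at 0.56, Rasal2 at 0.52, Ptpn2 at 0.56, Fosl1 at 0.47, Myc at 0.43, Mapk9 at 0.68 and Mapk12 at 0.56. Relative to that shift the members still ran from -0.44 to 0.57.

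The number of the 24 member probe sets higher and lower, with the share of all probe sets in brackets, was 6 and 4 with array weights (12.4% and 11.5%), 5 and 4 with a trend (12.4% and 12.0%), 5 and 3 with cyclic loess (10.6% and 9.56%), 5 and 3 with quantile normalization (10.2% and 10.1%) and 3 and 3 with median centring (7.66% and 9.73%). It was 7 and 1 of the 18 left by the filter at the median level (23.0% and 22.7%), 5 and 4 by the methods' test unadjusted (14.3% and 13.7%), 3 and 0 by that test after Benjamini-Hochberg adjustment (7.76% and 7.48%), and 2 and 0 at a threshold of 0.01 (5.27% and 4.53%). Of the 9 members, 2 were lower with array weights, a trend or the methods' test unadjusted, 1 with cyclic loess, quantile normalization or the filter, and 2 (Spry2 and Spry4) with the mean of a gene's probe sets. The number of members higher was 2 with median centring, the mean of the probe sets and the threshold of 0.01. The share of all genes under these settings is not given here. These counts by gene, that for the mean of the probe sets included, therefore stand without a background. Of all probe sets, the threshold of 0.01 left 2373 higher and 2040 lower, and the methods' test unadjusted gave 6188 lower. Leaving out 1 array gave 2 to 6 member probe sets higher and 0 to 3 lower, 2 to 3 members higher and 0 to 1 lower, and 2794 to 4199 higher and 2525 to 3907 lower over all. The replicate number as a block gave 2 member probe sets and 2 members higher and 2 probe sets lower, with 3080 higher and 2713 lower over all; both Spred2 calls and 1 of Spry4 ended (adjusted p = 0.0891, 0.0558 and 0.0622 from limma), and the dimmer Spry2 probe set passed (0.0483). Deviations of same-numbered arrays correlated with r of -0.138, 0.0276 and -0.136, and those of differently numbered arrays with r of -0.0631 to 0.171. With values this alike, the check cannot tell whether the numbers pair the arrays, and the labels do not say so. The list of ERK-responsive transcripts had 9 to 10 higher and 3 to 4 lower with 1 array left out, and no count of the other pathway lists then moved by more than 2. The cause of these changes was not tested. Signals near the lowest of the arrays, such as that of Fgf2, limit what can be read from them.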
